A study of Mus musculus with 9 samples.

Results

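The genes described here are neighbours at the proximal end of mouse chromosome 5, from Fam133b to Dok7. They were picked by name from a stretch that stood out in the comparison of shZeb1_D with Scr, so the values of that comparison chose them, and those values are given below as a description, with no p-values. Of the 58 listed genes, 52 were found among the 19505 named genes of the arrays, each through 1 probe set, and Orc5, Xrcc2, Nub1, Chpf2, Haus3 and Add1 were not analysed here. All 52 lay on chromosome 5 in the RefSeq gene order (assembly GRCm38.p6), and Cdk6, though listed, stood just before Fam133b. The stretch itself held 224 measured genes. The study asked what lowering Zeb1 does to the transcriptome of C1498, a mouse leukaemia line usually described as acute myeloid. Cells took up lentivirus with GFP and either a short hairpin RNA against Zeb1, seq D (shZeb1_D) or seq C (shZeb1_C), or the control construct Scr. After 2 weeks the GFP-positive fraction was collected, and total RNA of 3 samples per group was labelled with biotin and read on 9 single-colour arrays. Every group is thus the same line, infected, GFP-positive and kept in the same medium. The labels do not say whether the 3 samples of a group are separate infections, so the spread between them may be technical, nor whether the sorted cells descend from many infected cells or from few.

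Zeb1 is a zinc finger transcription factor that binds E-box motifs and mostly represses its targets. Genes that sit side by side on a chromosome usually have unrelated functions, and these are no exception: they include a cell cycle kinase, proteasome and mitochondrial peptidase subunits, sterol enzymes and histone methyltransferases. What neighbours do share is their DNA template, so gain or loss of a chromosome segment, which is common in cultured tumour lines, moves many of them the same way. Arrays measure RNA, DNA copies were not measured, and the part of gene dosage in the differences below was not tested.

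All values are log2 signals. The median signal of the 9 arrays ran from 6.97 to 7.16 and arrays of the same group correlated at 0.978 to 0.995 over probe sets (Pearson's r), those of different groups at 0.968 to 0.989. A gene is called above the median level when its mean over the arrays passed 7.10, the median of all named probe sets. Zeb1 itself had 9.56, 9.26 and 9.40 in shZeb1_D, 10.41, 10.01 and 10.34 in shZeb1_C and 10.52, 10.29 and 10.56 in Scr. It fell by 1.05 ± 0.16 in shZeb1_D (SE, n = 3 each; limma with Benjamini-Hochberg adjustment, adjusted p = 0.0263), and this call was lost without any 1 of the Scr arrays or of shZeb1_D arrays 14 and 15 (adjusted p 0.0502 to 0.157). The difference in shZeb1_C was -0.20 (adjusted p = 0.895), so the library labelled shZeb1_C did not show lower Zeb1 RNA beyond the replicate spread. Among markers, 3 of 4 leukocyte genes and 4 of 7 T and NK cell genes (Cd3e, Cd3g, Cd247 and Gzmb) were above the median level, Cd3e and Cd3g averaging 14.46 and 15.51, against 1 of 8 myeloid genes (Mpo, 7.66), 0 of 2 B cell, 0 of 1 erythroid, 1 of 2 fibroblast and 0 of 3 epithelial genes. Gzmb passed only through shZeb1_C (mean 10.39), with means of 6.27 in shZeb1_D and 6.06 in Scr. Of the myeloid markers, Mpo alone was above the median level in this line. The mean level of the T and NK cell list was 8.45 to 8.65 in shZeb1_D arrays, 9.84 to 10.44 in shZeb1_C arrays and 8.12 to 8.72 in Scr arrays. Nkg7 (5.93 above Scr in shZeb1_C), Gzmb (4.33) and Klrb1c (1.51) made up this difference, while Cd3e (0.27), Cd3g (0.04), Prf1 (-0.10) and Cd247 (-0.30) stayed near their Scr level. The part of these genes in the results was not tested.

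In shZeb1_D cells the neighbours were higher than in Scr cells almost without exception. The median difference of the 52 members was 0.74 on the log2 scale, a ratio of 1.66, with quartiles at 0.52 and 1.26. Of the 52, 50 were above 0, the exceptions being Cdk14 (-0.02) and Fgl2 (-0.24), both among the 5 members at or under the median level. The median over all named genes was 0.04, and over the 9634 genes above the median level outside the stretch it was -0.06. In 33 of 52 members all 3 shZeb1_D arrays lay above all 3 Scr arrays, where 10.3% of all named genes did so, and in 0 members did they all lie below, where 6.66% did so. The limma fit called 13 members higher, where 0.399% of all probe sets were called higher, and 0 members lower, where 0.445% were called lower. Since the members were chosen on this comparison, nothing is read from these counts. In bulk RNA a modest difference in every cell and a larger one in some of the cells cannot be told apart, nor can fewer cells of a type and less RNA per cell.

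**Figure D1:**
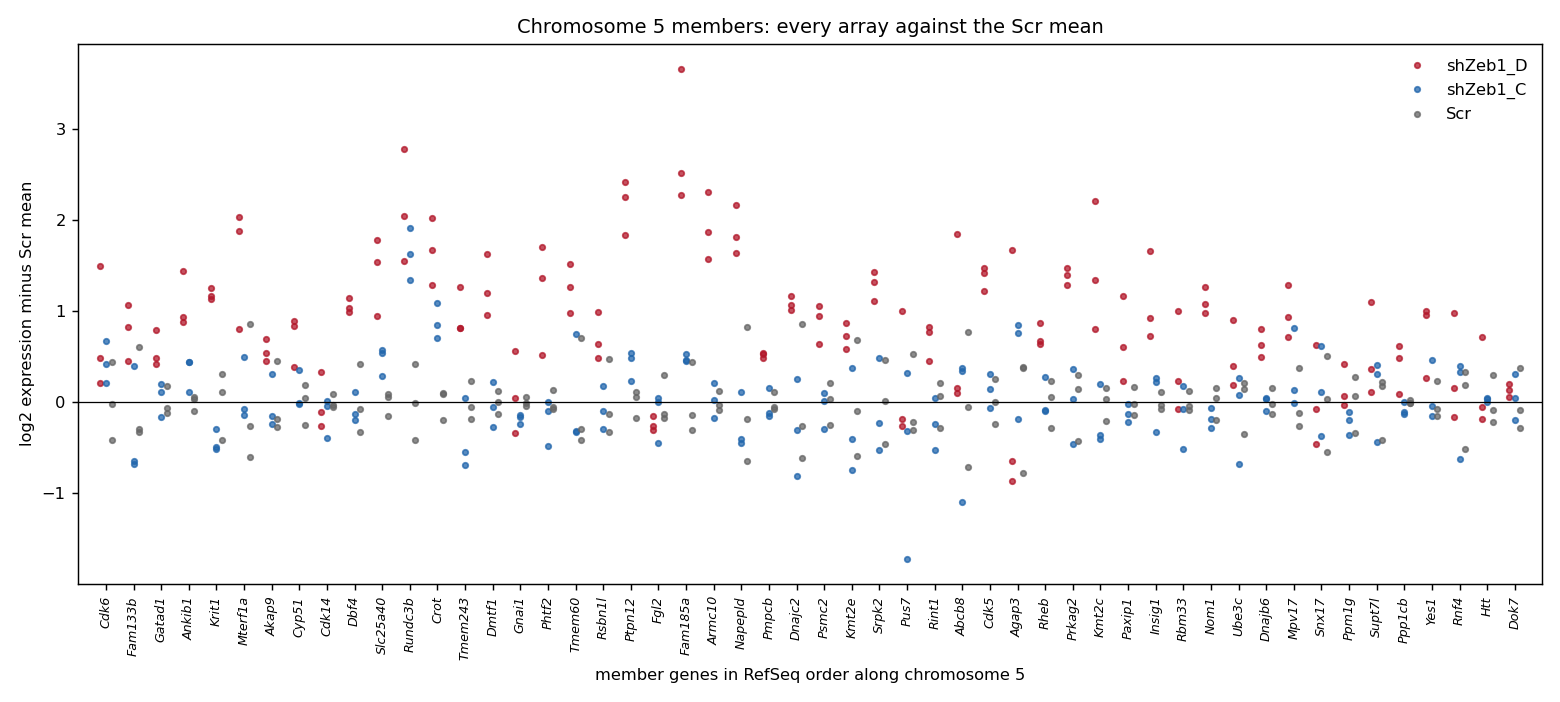
Log2 expression minus the Scr mean of each gene (vertical axis) for the 52 members in RefSeq order along chromosome 5 (horizontal axis), with 1 point per array in red for shZeb1_D, blue for shZeb1_C and grey for Scr. The red points lie mostly above 0 from Cdk6 to Dnajb6 and mix with the others towards Dok7, while the blue points lie around 0 except at Rundc3b and Crot.

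The 5 members with the highest difference were Fam185a, Ptpn12, Armc10 and Napepld, which lie close together, and Rundc3b. Fam185a had 13.82, 12.43 and 12.67 in shZeb1_D, against 10.69, 10.62 and 10.61 in shZeb1_C and 10.60, 9.85 and 10.02 in Scr, a difference of 2.82 ± 0.34 between shZeb1_D and Scr (SE, n = 3 each, as for the values that follow). All shZeb1_D arrays were far above all others, and array 13 exceeded the other two. Ptpn12 encodes a cytosolic tyrosine phosphatase that acts on cell adhesion proteins. Ptpn12 had 13.40, 12.82 and 13.24 in shZeb1_D, against 11.22, 11.53 and 11.48 in shZeb1_C and 11.05, 11.10 and 10.82 in Scr, a difference of 2.16 ± 0.19 with no overlap between groups. Armc10 had 14.06, 13.32 and 13.62 in shZeb1_D, against 11.58, 11.96 and 11.77 in shZeb1_C and 11.87, 11.66 and 11.72 in Scr, a difference of 1.92 ± 0.20; its product sits in the mitochondrial outer membrane. Napepld makes N-acylethanolamines, lipid mediators that include anandamide. Napepld had 9.84, 10.19 and 9.67 in shZeb1_D, against 7.63, 7.58 and 8.14 in shZeb1_C and 7.39, 8.86 and 7.85 in Scr, a difference of 1.87 ± 0.35, with Scr array 8 well above the other Scr arrays. Rundc3b, a RUN domain gene, had the largest difference of any member between shZeb1_C and Scr. Rundc3b had 12.36, 11.13 and 11.62 in shZeb1_D, against 11.21, 11.49 and 10.92 in shZeb1_C and 9.57, 9.16 and 10.00 in Scr, a difference of 2.13 ± 0.33 between shZeb1_D and Scr.

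The 5 members with the lowest difference did not separate the groups. Fgl2 had 5.67, 5.83 and 5.72 in shZeb1_D, against 5.53, 5.98 and 6.03 in shZeb1_C and 5.85, 5.81 and 6.28 in Scr, a difference of -0.24 ± 0.19 at a low signal; Fgl2 is a fibrinogen-like protein and sits between Ptpn12 and Fam185a. Cdk14 had 5.61, 6.05 and 5.46 in shZeb1_D, against 5.73, 5.33 and 5.68 in shZeb1_C and 5.81, 5.69 and 5.67 in Scr, a difference of -0.02 ± 0.19; this kinase works with cyclin Y. Gnai1 had 6.20, 7.10 and 6.59 in shZeb1_D, against 6.38, 6.30 and 6.40 in shZeb1_C and 6.53, 6.60 and 6.50 in Scr, a difference of 0.09 ± 0.21; it encodes an inhibitory G protein alpha subunit. These genes were at or under the median level, so a low signal limits what the arrays can show of them. The other two were well expressed. Snx17 had 12.15, 11.45 and 11.06 in shZeb1_D, against 12.14, 11.63 and 11.15 in shZeb1_C and 11.56, 10.97 and 12.03 in Scr, a difference of 0.03 ± 0.37; Snx17 is a sorting nexin that returns receptors from endosomes to the cell surface. Agap3 had 10.78, 8.24 and 8.46 in shZeb1_D, against 9.87, 9.96 and 8.92 in shZeb1_C and 9.50, 8.33 and 9.49 in Scr, a difference of 0.05 ± 0.64, for a GTPase-activating protein of Arf proteins. Array 13 was the highest of shZeb1_D for both genes and the other two shZeb1_D arrays lay among or below the Scr arrays.

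Promoter sequences are shown for members with a large difference, Fam185a and Slc25a40, and for members with a small or negative one, Snx17 and Fgl2. RefSeq promoter windows of 300 bases (GRCm38.p6, 250 before and 50 after the start) were matched for 46 of the 52 members, 57 windows in all. The E-box letters CACCTG, or CAGGTG, the same site on the other strand, were searched on the printed strand, and a window holding either counted as a match. Of the 57 windows, 10 held a match (17.5%), against 20.2% of all 32851 promoter windows and 17.7% of the windows of named genes above the median level. The median GC content was 66.7% in members, 52.7% in all windows and 60.0% in those of genes above the median level, and the median number of CpG was 29, 7 and 20. Fam185a (difference 2.82, chr5:21424653-21424952) and Fgl2 (difference -0.24, chr5:21372423-21372722), a neighbouring pair at opposite ends of the range, held no match. Slc25a40 (difference 1.42, chr5:8422588-8422887) and Snx17 (difference 0.03, chr5:31193054-31193353) each held 1, and this pair was chosen after the values were seen. All are on the plus strand, 5′ to 3′, with the matches in capitals.
Fam185a: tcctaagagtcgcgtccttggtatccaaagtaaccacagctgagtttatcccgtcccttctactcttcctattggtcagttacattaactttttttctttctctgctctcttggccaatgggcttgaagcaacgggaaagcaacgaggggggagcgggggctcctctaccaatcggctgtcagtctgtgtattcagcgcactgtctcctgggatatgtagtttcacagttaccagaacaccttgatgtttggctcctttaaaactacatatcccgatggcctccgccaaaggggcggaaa
Slc25a40: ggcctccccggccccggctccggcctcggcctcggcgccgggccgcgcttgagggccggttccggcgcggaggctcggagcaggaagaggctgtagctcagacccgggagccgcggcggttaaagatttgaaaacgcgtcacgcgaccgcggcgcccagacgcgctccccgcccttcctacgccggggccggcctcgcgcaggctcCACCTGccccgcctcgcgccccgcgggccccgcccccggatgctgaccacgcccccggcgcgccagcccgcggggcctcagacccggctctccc
Snx17: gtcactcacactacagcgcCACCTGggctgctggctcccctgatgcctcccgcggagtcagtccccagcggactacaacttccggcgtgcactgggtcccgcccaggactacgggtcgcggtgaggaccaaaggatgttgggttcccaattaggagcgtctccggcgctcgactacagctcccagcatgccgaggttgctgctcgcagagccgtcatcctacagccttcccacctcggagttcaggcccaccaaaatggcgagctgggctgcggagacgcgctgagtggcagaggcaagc
Fgl2: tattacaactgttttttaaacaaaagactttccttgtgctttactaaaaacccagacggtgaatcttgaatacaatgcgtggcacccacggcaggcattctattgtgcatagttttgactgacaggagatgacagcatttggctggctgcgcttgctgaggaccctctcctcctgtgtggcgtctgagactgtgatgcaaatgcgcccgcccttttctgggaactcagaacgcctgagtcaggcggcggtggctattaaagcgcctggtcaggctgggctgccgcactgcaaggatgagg
A match is a description of these letters, and its absence says only that they are not in this window.

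Along the chromosome the difference between shZeb1_D and Scr was smaller in the distal part of the stretch. The members were split by gene order into a proximal section from Cdk6 to Tmem60 (18 members), a middle section from Rsbn1l to Rheb (17) and a distal section from Prkag2 to Dok7 (17). Their median differences were 1.07, 0.73 and 0.53 and their means 1.01, 1.03 and 0.63, so the order of the proximal and middle sections depended on the measure. With each shZeb1_D or Scr array left out in turn the medians ran from 1.01 to 1.13, from 0.67 to 0.99 and from 0.36 to 0.65, the lowest distal value being the one without shZeb1_D array 13. Values of the unlisted genes above the median level are also only a description, since the stretch was found in this comparison. Over the whole stretch these 81 genes had a median of 0.59, with 70 above 0 (86.4%). Outside the stretch 44.3% of genes above the median level were above 0. The 96 genes of the stretch at or under the median level had a median of 0.17, against 0.09 for all such genes outside it. With only the arrays of the first set described below this median was 0.02. A low signal limits the difference that an array can show.

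**Figure D2:**
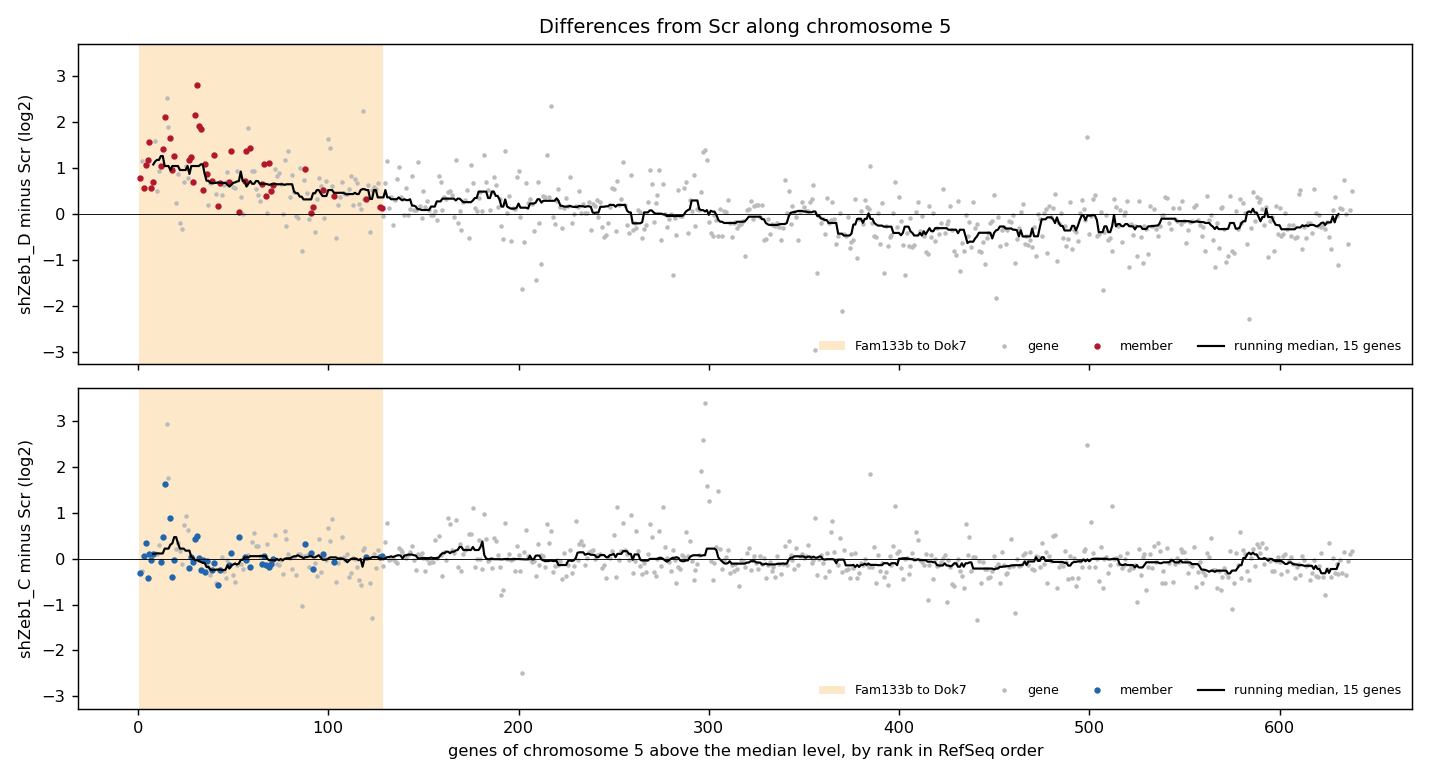
Log2 difference from Scr (vertical axes) of the 638 genes of chromosome 5 above the median level, in RefSeq order (horizontal axis, rank), for shZeb1_D in the upper panel and shZeb1_C in the lower panel. Coloured points are members, grey points other genes, the black line a running median over 15 genes, and the shaded band runs from Fam133b to Dok7. The running median in shZeb1_D is higher over the left part of the band than over its right part. From 0.37 at Dok7 it falls to 0.09 at Wdr1 and rises again to 0.49 at Rell1. In shZeb1_C it has a short peak inside the band, 0.47 at Dmtf1, and lower ones beyond it, such as 0.37 at Tbc1d1.

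The stretch had no sharp distal edge. Dok7, an adaptor of the muscle kinase Musk and the last gene inside, had a difference of 0.13 ± 0.20 in shZeb1_D. The next 5 measured genes were Lrpap1 (-0.09), Adra2c (0.12), Hmx1 (-0.26), Cpz (-0.03) and Trmt44 (0.08), of which Cpz alone was above the median level. Farther out, the first, next and following sets of 25 genes above the median level had medians of 0.28, 0.26 and 0.32, with 20, 18 and 19 of their genes above 0. In shZeb1_C over Scr the medians of these sets were 0.01, 0.15 and -0.01. Between shZeb1_D and shZeb1_C they were 0.29, 0.08 and 0.32, so the second set differed little between the hairpins. Over all 510 genes above the median level beyond Dok7 the median in shZeb1_D over Scr was -0.07, with 44.1% above 0. On the proximal side Cdk6, the cyclin D kinase, was the only measured gene with a place before Fam133b. It had 6.58, 6.85 and 7.86 in shZeb1_D, against 6.58, 6.79 and 7.04 in shZeb1_C and 6.35, 5.96 and 6.81 in Scr, values that overlapped between all groups.

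Array by array, the members were higher on all 3 shZeb1_D arrays. The median member lay 0.98, 0.81 and 0.85 above the Scr mean on shZeb1_D arrays 13, 14 and 15. It lay at -0.07, 0.00 and 0.05 on shZeb1_C arrays 10, 11 and 12 and at -0.01, -0.03 and -0.02 on the Scr arrays themselves. In the proximal section the 3 shZeb1_D arrays gave 0.94, 0.94 and 1.23, and in the middle section 1.05, 0.95 and 0.87. In the distal section they gave 0.93, 0.23 and 0.40, relative to the mean of all Scr arrays. Array 13 was the highest of its group in 9 of 18 proximal, 7 of 17 middle and 13 of 17 distal members. The share over all named genes is not given here, so nothing is read from these counts. Counted singly, 44, 39 and 41 members passed every Scr array on the 3 shZeb1_D arrays, where 27.2%, 35.4% and 35.5% of all named genes did so. On the 3 shZeb1_C arrays 13, 14 and 15 of the 52 did, where 21.4%, 25.7% and 31.3% of all named genes did so, which is about the same share.

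**Figure D3:**
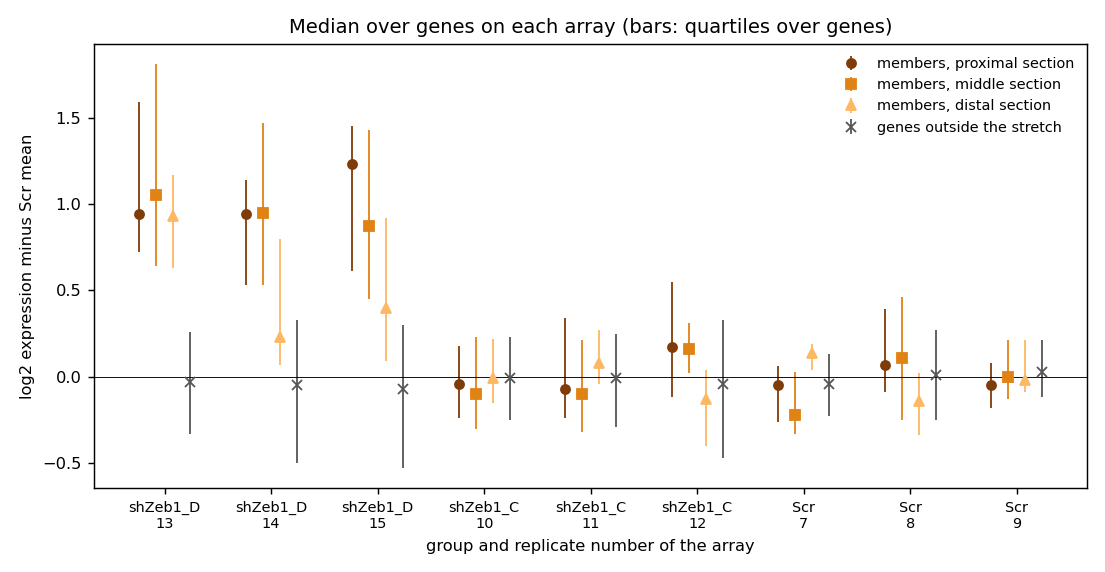
Median over genes of log2 expression minus the Scr mean (vertical axis) on each of the 9 arrays (horizontal axis: group and replicate number), for the proximal, middle and distal members and for genes above the median level outside the stretch, with bars from the lower to the upper quartile over genes. The member medians stand above those of the other genes on the shZeb1_D arrays, where the distal members of arrays 14 and 15 lie lowest, and sit near 0 on all other arrays.

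The 9 arrays also fell into 2 sets that cut across the groups. They were split by whether an array's score was positive or negative on the leading component of the residuals from the group means, which held 57.9% of residual variance. The first set was Scr 7 and 9, shZeb1_C 10 and 11 and shZeb1_D 13, and the second was Scr 8, shZeb1_C 12 and shZeb1_D 14 and 15. What divides the sets is not given by the labels. The member median in shZeb1_D over Scr was 0.98 within the first set and 0.65 within the second, against 0.74 over all arrays. Within the first set the proximal, middle and distal medians were 1.21, 1.29 and 0.88, and within the second 0.92, 0.57 and 0.56. Set against Scr array 8, of their own set, shZeb1_D arrays 14 and 15 thus gave nearly equal medians for the middle and distal sections, unlike against the mean of all Scr arrays. In shZeb1_C over Scr the member median was 0.00 within the first set and -0.02 within the second. The difference in shZeb1_D was thus present in both sets, with different sizes. The sets were taken from the values, so they served only for such within-set values and as a covariate.

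The sizes can be set beside simple template ratios. RNA in proportion to 3 templates in place of 2 would differ by 0.58 on the log2 scale, and to 4 in place of 2 by 1.0. The labels do not give the number of copies in C1498, and the marks take the signal to be in proportion to RNA. The midpoints are 0.29 and 0.79. In shZeb1_D over Scr, 9 of 52 members (17.3%) lay below 0.29, 19 (36.5%) between the midpoints and 24 (46.2%) at or above 0.79. Among those, 7 lay above 1.5. Among genes above the median level outside the stretch the shares were 80.7%, 15.3% and 3.98%. The differences were therefore spread over a wide range, with an SD over members of 0.63, when the median SE of a single member was 0.23. Genes above the median level outside the stretch had an SD of 0.55 and a median SE of 0.25, so such a spread was not particular to the members. In shZeb1_C over Scr, 43, 7 and 2 members (82.7%, 13.5% and 3.85%) lay in the same ranges, close to the shares of genes outside the stretch (83.4%, 12.2% and 4.36%). A split of the members by level gave medians in shZeb1_D of 0.63 for the 18 with the lowest signal (up to 10.84), 1.19 for the 17 in between and 0.73 for the 17 with the highest (from 12.20), so the difference did not grow steadily with signal. Genes outside the stretch with signals as high as this last group had a median of -0.05.

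Grouped by role, the difference in shZeb1_D was spread over unrelated functions. Members were chosen by place and on this comparison, so the values by role are a description. The 6 mitochondrial members ran from 0.52 in Pmpcb, the beta subunit of the peptidase that trims imported proteins, to 1.92 in Armc10, with Mterf1a, a mitochondrial transcription termination factor, at 1.57 and the inner membrane carrier Slc25a40 at 1.42. Pmpcb had 16.75, 16.79 and 16.80 in shZeb1_D, against 16.11, 16.14 and 16.42 in shZeb1_C and 16.21, 16.37 and 16.19 in Scr, so that even this bright gene separated shZeb1_D from the rest by a small margin, 0.52 ± 0.14. The 4 lipid and sterol members had a median of 1.38. They were Napepld, Crot, a peroxisomal carnitine acyltransferase (1.66), Insig1, which holds the sterol sensor Scap in the endoplasmic reticulum (1.10), and Cyp51, the lanosterol demethylase of cholesterol synthesis (0.71). Insig1 had 13.47, 12.54 and 12.73 in shZeb1_D, against 12.03, 12.08 and 11.48 in shZeb1_C and 11.92, 11.78 and 11.73 in Scr, without overlap between shZeb1_D and Scr. The 7 chromatin and transcription members had a median of 0.73 and none below 0.53. Among them were the histone methyltransferase Kmt2c (1.45), its relative Kmt2e (0.73), the Myb-like factor Dmtf1 (1.27), the SAGA subunit Supt7l (0.53), Phtf2 (1.19), Rsbn1l (0.70) and the chromatin-bound zinc finger protein Gatad1 (0.56). Gatad1 had 16.05, 15.68 and 15.74 in shZeb1_D, against 15.37, 15.46 and 15.10 in shZeb1_C and 15.44, 15.14 and 15.20 in Scr, again with shZeb1_D above both other groups.

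The 5 RNA processing members had a median of 0.78. Srpk2, a kinase of splicing factors, had 14.32, 14.53 and 14.64 in shZeb1_D, against 12.98, 12.69 and 13.69 in shZeb1_C and 12.75, 13.67 and 13.22 in Scr, a difference of 1.28 ± 0.29 between shZeb1_D and Scr with no overlap. Nom1, a nucleolar factor of ribosome assembly, differed by 1.11, Fam133b by 0.78, Rbm33 by 0.39 and the pseudouridine synthase Pus7 by 0.19. The 5 members of cell division, replication and repair had a median of 0.68. Dbf4, the activator of the origin-firing kinase Cdc7, differed by 1.05, Cdk6 by 0.72, the vesicle tether Rint1 by 0.68 and Cdk14 by -0.02. Paxip1, a DNA damage response protein, had 12.60, 11.66 and 12.03 in shZeb1_D, against 11.21, 11.41 and 11.30 in shZeb1_C and 11.60, 11.29 and 11.41 in Scr, a difference of 0.66 ± 0.23 whose lowest shZeb1_D array passed the highest Scr array narrowly. The 6 members of protein folding and turnover had a median of 0.76. They were the ribosome-bound chaperone Dnajc2 (1.09), the ubiquitin ligases Ankib1 (1.08), Ube3c (0.50) and Rnf4 (0.32), the proteasome ATPase Psmc2 (0.88) and the co-chaperone Dnajb6 (0.64). Rnf4, which targets SUMO-marked proteins, had 15.13, 13.99 and 14.31 in shZeb1_D, against 14.55, 14.48 and 13.53 in shZeb1_C and 14.34, 13.64 and 14.48 in Scr, and the groups overlapped.

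The 10 kinases, phosphatases and signalling members had a median of 0.64. Rheb, the GTPase that activates the growth kinase mTOR, had 15.33, 15.36 and 15.56 in shZeb1_D, against 14.60, 14.59 and 14.97 in shZeb1_C and 14.41, 14.92 and 14.75 in Scr, a difference of 0.72 ± 0.18. Prkag2, a regulatory subunit of the energy sensor AMPK, differed by 1.38, the kinase Cdk5, best known from neurons, by 1.37, and the kinase A anchor Akap9 by 0.56. The Src family kinase Yes1 differed by 0.74, the phosphatase catalytic subunit Ppp1cb by 0.40 and the phosphatase Ppm1g by 0.15. The 5 members of membrane traffic, adhesion and cytoskeleton had the lowest median, 0.16: Snx17, Agap3 and Htt stayed close to Scr and Rundc3b and Krit1 did not. Krit1, a scaffold of endothelial junctions, differed by 1.18. Htt, the huntingtin gene, had 11.29, 10.39 and 10.53 in shZeb1_D, against 10.58, 10.63 and 10.62 in shZeb1_C and 10.88, 10.49 and 10.36 in Scr, a difference of 0.16 ± 0.24 in which array 13 alone lay above every Scr array. Of the remaining members, Tmem243 had 15.24, 15.24 and 15.69 in shZeb1_D, against 13.74, 14.48 and 13.88 in shZeb1_C and 14.66, 14.38 and 14.24 in Scr, a difference of 0.96 ± 0.23 without overlap. Tmem60 differed by 1.25, and the mitochondrial members Mpv17 and Abcb8 by 0.98 and 0.69.

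With the other hairpin the same genes did not move as a block. The shZeb1_C arrays took no part in choosing the members, although the Scr arrays they are set against did. The median difference between shZeb1_C and Scr was -0.03 over the 52 members, from -0.57 in Pus7 to 1.63 in Rundc3b, with 23 above 0. It was 0.01, -0.07 and -0.01 in the proximal, middle and distal sections and 0.00 over all named genes. The limma fit called 0 of the 52 members, where 0.945% of all probe sets were called, and 3 members had an unadjusted p under 0.05, where 8.77% of probe sets did. In 6 members all shZeb1_C arrays lay above all Scr arrays, where 7.49% of named genes did so, and in 1 (Gnai1) all lay below, where 6.74% did so. The 6 were Ankib1, Slc25a40, Rundc3b, Crot, Ptpn12 and Fam185a.

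The largest differences of members in shZeb1_C, Rundc3b and Crot, lay beside Abcb1a and Abcb1b, drug efflux pump genes that lie between members. This run of 9 measured genes was singled out after the values were seen. Abcb1a had 13.49, 13.69 and 13.37 in shZeb1_C, against 10.75, 10.14 and 10.86 in Scr, and rose by 2.93 ± 0.25 (SE, n = 3 each; limma adjusted p = 0.00122). Abcb1b had 14.55, 14.62 and 14.38 in shZeb1_C, against 12.99, 12.32 and 12.95 in Scr, and rose by 1.76 ± 0.25 (limma adjusted p = 0.0128). The call of Abcb1b was lost without Scr array 9 or shZeb1_C array 10 or 11 (adjusted p 0.0577 to 0.062). These paralogs are close in sequence, and cross-hybridisation between their probe sets was not tested. Next to them, Rundc3b differed by 1.63 ± 0.33 in shZeb1_C (limma adjusted p = 0.0615) and Crot by 0.88 ± 0.21 (limma adjusted p = 0.116). Crot had 11.45, 11.30 and 11.69 in shZeb1_C, against 10.70, 10.40 and 10.69 in Scr, with no overlap. Both missed the threshold over all 9 arrays, and both passed it with the array set as a covariate and with array weights. Rundc3b also passed it after renewed quantile normalization and without shZeb1_D array 13. On either side, Slc25a40 differed by 0.47 (limma adjusted p = 0.6), Dbf4 by -0.08, Tmem243 by -0.39 and Dmtf1 by -0.03, and Abcb4, a phospholipid pump gene within the run, differed by -0.11 at a signal of 4.48. In shZeb1_D over Scr all 9 genes were above 0, by 1.05 in Dbf4, 1.42 in Slc25a40, 2.13 in Rundc3b, 2.52 in Abcb1a, 1.90 in Abcb1b, 0.25 in Abcb4, 1.66 in Crot, 0.96 in Tmem243 and 1.27 in Dmtf1. Both comparisons share the Scr arrays.

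**Figure D4:**
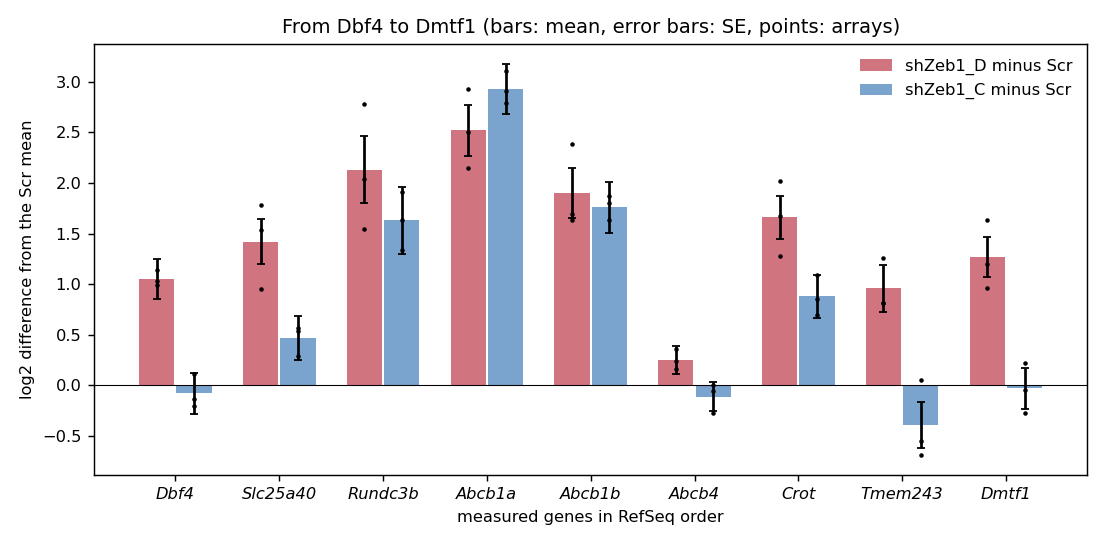
Log2 difference from the Scr mean (vertical axis) of the 9 measured genes from Dbf4 to Dmtf1 in RefSeq order (horizontal axis), with bars for the mean of shZeb1_D (red) and shZeb1_C (blue), error bars for the SE and a point for each array. The red bars are above 0 for all 9 genes and the blue bars reach beyond 0.5 only in Rundc3b, Abcb1a, Abcb1b and Crot.

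Set directly against shZeb1_C, the shZeb1_D arrays gave much the same picture as against Scr, again as a description because the shZeb1_D arrays chose the members. The median difference was 0.78, with 49 of 52 members above 0. All shZeb1_D arrays lay above all shZeb1_C arrays in 35 members, where 8.98% of named genes did so, and the fit called 11 members higher, where 0.307% of probe sets were called, and 0 lower, where 0.542% were called. Rundc3b had the highest level in shZeb1_C relative to Scr and differed by only 0.50 ± 0.33 between the hairpins. Agap3 was lower in shZeb1_D, by -0.42 ± 0.64.

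Genes outside the stretch whose products work with the members, or are their paralogs, inhibitors or substrates, took no part in the choice of members. The arrays are the same as those that chose the members. Of 103 listed partner genes, 94 were measured, none of them in the stretch. Some, such as Cdc7, Mvk, Prkab1 and Ppp1cc, lie elsewhere on chromosome 5. In shZeb1_D against Scr, 1 rose and 1 fell at an adjusted p under 0.05, or 2.13% of the 94, where 0.843% of all probe sets were called. At an unadjusted p under 0.05 there were 18, where 13.6% of probe sets passed. Their median difference was -0.20. Tbc1d7, a subunit of the complex that restrains Rheb, had 8.65, 9.62 and 9.84 in shZeb1_D, 8.69, 8.66 and 9.12 in shZeb1_C and 7.31, 7.84 and 7.67 in Scr, and rose by 1.76 ± 0.30 in shZeb1_D (limma adjusted p = 0.039). All shZeb1_C arrays were above all Scr arrays too, by 1.22 on average, and the hairpins differed by 0.55 (limma adjusted p = 0.528). Ccnyl1, a cyclin Y relative that can serve Cdk14, had 9.11, 8.92 and 8.80 in shZeb1_D, against 9.82, 10.06 and 10.04 in shZeb1_C and 9.93, 9.86 and 10.09 in Scr, and fell by 1.02 ± 0.15 relative to Scr (limma adjusted p = 0.0224). Either call was lost without any 1 of the Scr arrays or of shZeb1_D arrays 14 and 15, and that of Tbc1d7 also without shZeb1_C array 10 or 11 (adjusted p 0.0502 to 0.178).

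The partner lists had medians from -0.38 to -0.03 in shZeb1_D over Scr. The members were chosen for high values in this comparison and the partners were not, so nothing is read from members lying above partners. Genes above the median level outside the stretch had a median of -0.06. These values are over all arrays, and the second array set holds 2 arrays of shZeb1_D and 1 of Scr. The part of the array sets in the partner values was not tested. Around Psmc2 (0.88), the other measured genes of the proteasome base had a median of -0.34 in shZeb1_D, with Psmc4 at -0.05, Psmc3 at -0.40, Psmc6 at -0.16 and Psmc5 at -0.28. Psmc4 had 14.81, 14.98 and 14.77 in shZeb1_D, against 14.77, 14.93 and 15.02 in Scr, which overlapped. Around Dbf4 (1.05), 14 genes of origin licensing and firing had a median of -0.38, among them Mcm2 (-0.90), Mcm6 (-0.13), Orc3 (0.10) and Mcm5 (-0.89). Around Kmt2c and Paxip1, 7 genes of their methyltransferase complex had a median of -0.32, with the core subunits Dpy30 at 0.35, Ash2l at -0.39 and Wdr5 at -0.54 and the demethylase Kdm6a at -0.07. Around Cyp51 and Insig1, 18 sterol genes had a median of -0.23, with Fdps at 0.26, Sc5d at -0.29, Fdft1 at -0.11 and the regulator Srebf2 at -0.82. Around Rheb and Prkag2, 13 genes had a median of -0.19, and Tsc2, Prkaa1, Rptor and Prkag1 were at -0.51, -0.16, -0.20 and -0.31. Around Cdk6, 10 genes had a median of -0.03, with Cdk4 at -0.05, Ccnd3 at -0.42, Rbl2 at 0.08 and Ccnd2 at -0.73. Single partners gave like values. Pmpca, which pairs with Pmpcb (0.52), was at -0.25, Ppp1ca and Ppp1cc, the paralogs of Ppp1cb (0.40), at -0.13 and -0.44, and Gnai2 at -0.23. No partner named in this paragraph passed the test, and a p above the threshold does not show that a gene did not change.

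**Figure D5:**
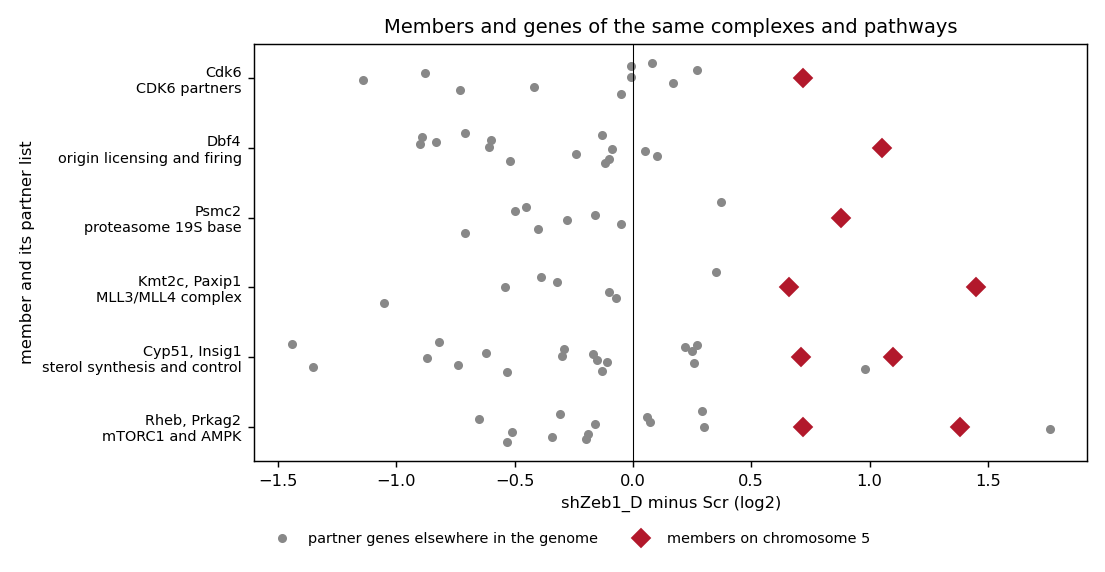
Log2 difference between shZeb1_D and Scr (horizontal axis) for members (red diamonds) and for their partner genes outside the stretch (grey points), 1 row per list (vertical axis). The red diamonds lie from 0.66 to 1.45 and most grey points lie at or below 0, with Tbc1d7 at 1.76 the farthest to the right. The members, unlike the partners, were chosen for high values of this difference.

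Partners of a member that was not analysed here were measured as well. The 6 augmin genes, which work with Haus3 at the mitotic spindle, had medians of -0.03 in shZeb1_D and 0.07 in shZeb1_C, relative to Scr. Haus7 was at 0.03, Haus2 at -0.13, Haus6 at -0.08 and Haus1 at 0.74 in shZeb1_D, none of which passed the test. In shZeb1_C against Scr, limma called 0 of the 94 partners, where 0.945% of probe sets were called, and 8 had an unadjusted p under 0.05, where 8.77% of probe sets did. Over all 94 partners the median was -0.20 in shZeb1_D and -0.02 in shZeb1_C.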

How the data were processed

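Expression was measured on 9 single-colour arrays, 3 per group. The values the authors deposited are linear intensities from RMA, a normalization that corrects background, equalizes distributions and summarizes probes, named with the Transcriptome Analysis Console in the submitters' processing notes without versions. The tables lack decimal points. For all 199854 cells the point was put back where log2 of the value is a multiple of 0.01 (tolerance 1e-06 of that step). Accepted placements were off by at most 1.1e-12 steps, rejected ones by at least 0.19. The log2 values ran from 3.26 to 17.44. Since RMA equalizes arrays, a shift common to all genes cannot be seen. No source used here gives the files' genome build, so only RefSeq promoters have coordinates.

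Of 22206 probe sets, 19572 had 1 gene symbol and the other 2634 stayed out of the fit, being unnamed here. A gene was represented by its probe set with the highest mean. limma 3.58.1 in R 4.3.3 was fitted to the log2 values of all 19572 with a mean per group, all 9 arrays and empirical Bayes moderation. P-values were adjusted by the Benjamini-Hochberg method within each comparison, with calls made at an adjusted p under 0.05. The script was tested on simulated data. The number of arrays limits the precision. Other normalizations, variance priors, filters, array weights, array subsets and leaving out arrays were tried.

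The members, partner lists, markers and tests were chosen with earlier results of these data known. Values in every array are given for the 5 members with the highest and 5 with the lowest difference in shZeb1_D over Scr and for the brightest member of each role group. Partner genes are named when called, or when among the 4 brightest others of their list. A list of partner genes is not reported here. Genes next to the stretch, Abcb1a, Abcb1b and Zeb1 are also named.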

Additional observations from a re-analysis of the deposited data

Results flagged for a closer look

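For 4 of the 52 members (7.69%) every shZeb1_D array lay above the Scr mean and every shZeb1_C array below it. Of all named genes, 3.39% had the hairpins on opposite sides of the Scr mean. Since members were chosen for high values in shZeb1_D, this count is a description. They were Krit1, with shZeb1_D minus shZeb1_C at 1.61, Phtf2 at 1.39, Nom1 at 1.28 and Paxip1 at 0.79. The opposite placement itself was not tested, and no p is given for the difference between the hairpins, because the shZeb1_D arrays had chosen these genes. Krit1 and Nom1 are among the 11 members that the limma fit called higher in shZeb1_D than in shZeb1_C, from which nothing is read. In shZeb1_C relative to Scr their differences were -0.43 in Krit1, -0.20 in Phtf2, -0.17 in Nom1 and -0.13 in Paxip1, none of which passed the test.

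Of the 94 partner genes, 1 differed between the hairpins by limma, or 1.06%, where 0.848% of all probe sets were called. Ccnyl1 differed by -1.03 ± 0.15 in shZeb1_D relative to shZeb1_C (limma adjusted p = 0.0161), and the call was lost without shZeb1_C array 10 or 11 or shZeb1_D array 14 or 15, with only the arrays compared and with a trended variance prior (adjusted p 0.0518 to 0.086). Ccnyl1 fell by 1.02 in shZeb1_D relative to Scr and differed by 0.01 in shZeb1_C relative to Scr.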

How the results depend on the processing

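Over all alternatives the median member stayed above 0 in shZeb1_D relative to both other groups and within 0.10 of 0 in shZeb1_C relative to Scr. The median for shZeb1_D minus Scr, 0.74, became 0.64 with array medians subtracted, 0.43 over all measured genes of the stretch, 0.88 over members above the median level, 0.89 as a mean and 0.98 within the first array set, and 0.73 to 0.89 with single arrays left out. The median for shZeb1_C minus Scr, -0.03, became -0.10 with array medians subtracted and 0.03 over all genes of the stretch, and -0.06 to 0.02 with single arrays left out. For shZeb1_D minus shZeb1_C, 0.78 became 0.34 over all genes of the stretch and 1.00 within the first array set, and 0.72 to 0.88 with single arrays left out. The dim genes of the stretch, 0.17, became 0.02 within the first array set and 0.11 to 0.20 with single arrays left out. Subtracting array medians moved the median of all genes to -0.05 in shZeb1_D and -0.07 in shZeb1_C, against 0.04 and 0.00.

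Members called in shZeb1_C, 0 over all arrays, were 2 with the array set as a covariate, 2 with array weights and 1 after renewed quantile normalization, and 0 to 1 with single arrays left out. Partner genes called in shZeb1_D, 2 over all arrays, were 4 with the covariate, 12 with array weights, 1 after quantile normalization, 1 with a trended variance prior, 0 with only the arrays compared, and 0 to 3 with single arrays left out. In shZeb1_C, 0 over all arrays became 3 with the covariate and 2 with array weights, and 0 to 1 with single arrays left out. The share of all probe sets called under each alternative is not given here, so nothing is read from these counts of members and partners. Zeb1 in shZeb1_D stayed at -1.05 but missed the threshold with only the arrays compared (adjusted p = 0.0626) and with the trended prior (0.0904), and ran from -1.13 to -0.98 with single arrays left out. The cause of these shifts was not tested. Leaving out an array changes both the number of arrays and the values used, and these cannot be told apart. The array sets were chosen after seeing the data. No paired analysis was possible because the groups share no replicate numbers. With 3 arrays per group and a median SE of 0.23, single members with small differences cannot be resolved.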
